A study of Mus musculus with 6 samples.

Results

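The DEAD- and DEAH-box proteins are the largest group of RNA helicases, enzymes that use ATP to open RNA duplexes or to strip proteins from RNA, and their genes were taken here by symbol: every locus of the authors' tables with a gene name of Ddx or Dhx followed by a number, apart from the Y-linked Ddx3y. The pattern matched 57 of 62490 loci. They held 52 helicase genes, among 51398 distinct gene names, plus the antisense transcript Dhx58os, which only shares the name and was set aside. Ddx19a and Ddx19b share 1 locus, so the genes gave 51 main loci, and 5 genes (Ddx10, Ddx25, Ddx39b, Ddx42 and Ddx43) had a second locus with fewer estimated counts that is described apart.

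RNA was sequenced from embryonic stem cells that were derived from C57BL/6J mouse blastocysts and carry floxed Mll1 with a Cre-ER recombinase, in 3 groups of 2 libraries named as biological duplicates. One group received 100 µM MM-401, an inhibitor of the histone methyltransferase MLL1, together with 1 µM 1α,25-dihydroxyvitamin D3 (VD3) for 5 days, one received 1 µM VD3 alone for 5 days, and one was untreated, with no time given. All cells grew with LIF on mouse embryonic fibroblast feeders, both a serum and a serum-replacement medium were listed for every library, and no group received MM-401 alone, so the inhibitor can be judged only on top of VD3. The authors' tables give 1 column per group with the duplicates pooled; no spread between libraries can be had, and no test was possible.

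The column named VD3 was read as the VD3 group, VD3122 as VD3 plus MM-401 and ESCfef as untreated cells. The labels do not explain the rest of those names, and another meaning would change every comparison below. Estimated counts summed to 73499639 with VD3 plus MM-401, 73636342 with VD3 and 62284598 in untreated cells. All 8 embryonic stem cell markers were found, at 26.4 FPKM or more in each pool. Of 10 fibroblast markers, 9 were under 1 FPKM with VD3 plus MM-401, 8 with VD3 and 8 in untreated cells, and their summed levels were 11.4, 20.4 and 13.9 FPKM in the same order of pools; Lum was listed at 0 in each, and Postn in both treated pools. In pooled bulk RNA, fewer cells of a type and less RNA per cell cannot be told apart.

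DEAD-box proteins load directly on short duplexes and pry the strands apart locally, whereas DEAH-box proteins mostly pull themselves along one strand; both are steered by cofactors, such as MIF4G proteins for the first kind and G-patch proteins for the second. The names spell, in one-letter code, the Asp-Glu-Ala-Asp or Asp-Glu-Ala-His stretch that helps bind and hydrolyse ATP. Family members work at nearly every step of RNA life, and in rapidly dividing cells such as embryonic stem cells many of them serve pre-mRNA splicing and ribosome production.

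The coding sequence around that stretch is shown for 5 genes (3 DEAD-box and 2 DEAH-box) from the low end and as many from the high end of the VD3 over untreated difference, among those whose annotated coding sequence held it, because the helicases' differences ran with the base composition of their transcripts. Each window has 42 bases of the coding strand from GENCODE vM21 transcripts on mm10, lower case except the 4 codons of the box in capitals, and the boxes lie at chrX:13289408-13289419 (plus strand) in Ddx3x, chr13:112612097-112612108 (minus) in Ddx4, chr9:78414230-78414241 (plus) in Ddx43, chr11:86800987-86800998 (minus) in Dhx40, chr5:52171496-52171507 (minus) in Dhx15, chr8:70297301-70297312 (minus) in Ddx49, chr5:110655766-110655777 (plus) in Ddx51, chr11:6266559-6266570 (minus) in Ddx56, chr5:125426717-125426728 (minus) in Dhx37 and chr8:109556065-109556076 (minus) in Dhx38. An intron falls inside the windows of Ddx3x, Ddx43, Ddx49 and Ddx51 and is left out.
Ddx3x: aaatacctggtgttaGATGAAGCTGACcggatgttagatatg
Ddx4: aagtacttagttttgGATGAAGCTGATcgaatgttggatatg
Ddx43: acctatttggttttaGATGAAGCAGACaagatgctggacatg
Dhx40: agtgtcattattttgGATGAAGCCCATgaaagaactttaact
Dhx15: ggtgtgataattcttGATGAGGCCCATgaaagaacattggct
Ddx49: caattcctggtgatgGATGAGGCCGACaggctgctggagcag
Ddx51: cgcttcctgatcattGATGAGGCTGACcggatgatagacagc
Ddx56: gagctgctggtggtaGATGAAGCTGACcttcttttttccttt
Dhx37: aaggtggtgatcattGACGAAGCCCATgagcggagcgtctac
Dhx38: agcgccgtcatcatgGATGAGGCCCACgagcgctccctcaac
The low-end windows hold 14 to 18 G or C among their 42 bases (Dhx40 has 14 and Dhx15 has 18). The high-end windows hold 19 to 27 (Ddx56 has 19 and Dhx38 has 27). These windows were picked by the difference, so their split is no test. Among windows not shown, Ddx20 and Ddx46 hold 14 at differences of 0.46 and 0.005. Dhx35 holds 22 at −0.04, and Dhx16 holds 24 at 0.69. Dhx36 (−1.43) and Ddx50 (−1.20) at the low end and Ddx39b (1.34) at the high end had no match and so no window. The 4 codons for the DEAD stretch were found in frame in 28 of the 52 genes and in 0.753% of 21779 coding genes, and those for the DEAH stretch in 9 of the 52 and in 0.344%. For 15 of the 52 no match was found in the annotated coding sequence, and Ddx10 held more than one. The search took any in-frame match, wherever it lay: the DEAD codons of Dhx29, a DEAH-type gene, lie at coding bases 3337 to 3378 with their flanks and need not be the helicase box. A match describes these letters and shows no activity.

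Nearly the whole family was transcribed in these cells. Of the 51 main loci, 47 reached 5 FPKM in every pool and 10 reached 100 FPKM in every pool. FPKM are fragments scaled to transcript length and to depth, the latter in a way not given in the sources used here. Only Ddx60, an interferon-induced antiviral helicase, was listed at 0 throughout. Without Dhx9 and Ddx17, whose status is failed in some pools, 45 loci reached 5 FPKM and 8 reached 100 FPKM in every pool. The median main locus stood at 56.0 FPKM in the VD3 plus MM-401 pool, 58.1 with VD3 and 41.7 in untreated cells. Together the members took 0.931%, 1.01% and 1.02% of all estimated counts in those pools. The share hardly moved, but its make-up did: Ddx3x alone supplied 3.79% of the members' counts in the VD3 plus MM-401 pool and 2.41% in the VD3 pool, against 10.7% in untreated cells.

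By FPKM the splicing helicase Dhx16 ranked first in each pool. Ddx3x ranked 13th with VD3 plus MM-401 and 19th with VD3, against second in untreated cells. Ranked by estimated counts per kilobase of the annotated transcript, Ddx3x came first in untreated cells and Dhx16 sixth, while Ddx39b came first in both treated pools. The authors' intervals of neighbours in the FPKM order overlapped at almost every step, the exceptions being Dhx16 above Ddx39b with VD3 plus MM-401 and Ddx43 above the next locus in untreated cells, so most neighbours in the order do not differ beyond their error.

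**Figure D1:**
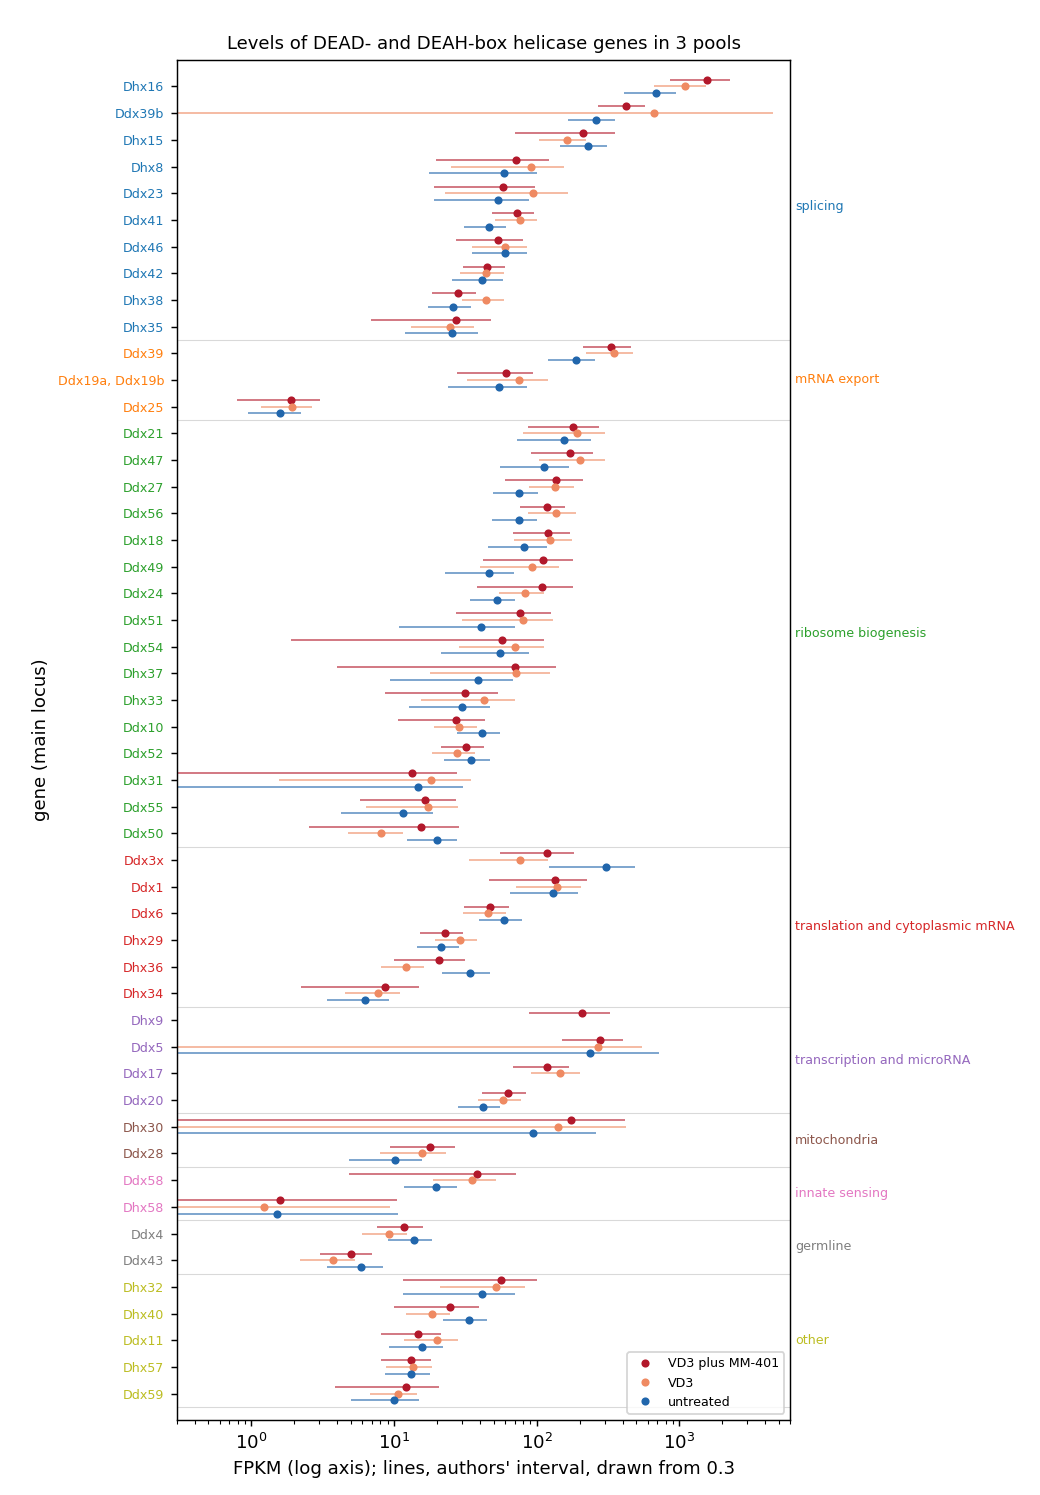
Level of each main locus in FPKM on a log axis, genes grouped by role; points are pooled values and lines the authors' intervals, cut at 0.3. Ddx60, listed at 0, is not drawn, nor are the values with a failed status (Dhx9 in VD3 and untreated, Ddx17 in untreated); 47 of 51 loci lie at or above 5 FPKM in every pool.

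A locus was counted as different between 2 pools where FPKM + 1 differed at least 2-fold (1 on the log2 scale) and the authors' intervals did not overlap, among loci of at least 5 FPKM in the higher pool and of valid status. The header gives no confidence level for those intervals, and how far they include the spread between the duplicates is not stated. In VD3 over untreated, 3 of 46 helicase loci were lower by that rule (Ddx3x, Dhx36 and Ddx50) and 0 were higher, beside 4.66% of all 11764 loci lower and 1.43% higher. A count of 3 in 46 is close to that background, so the count itself does not set the helicases apart. In VD3 plus MM-401 over untreated 0 of 46 were counted, beside 3.18% of 11931 loci lower and 5.31% higher. In VD3 plus MM-401 over VD3 0 of 47 were counted, beside 1.04% of 11669 loci lower and 2.01% higher. The comparisons over untreated use the same untreated pool and are not independent of each other. VD3 plus MM-401 over VD3 shares a pool with each of them and is not independent either.

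By FPKM most helicases sat slightly above 0 in both comparisons with untreated cells, but so did most loci. The median log2 difference of VD3 over untreated was 0.38 over the helicases and 0.36 over all loci, with 35 helicases above 0, 11 below, and 23 of 46 above the median locus. For VD3 plus MM-401 over untreated it was 0.19 against 0.28, with 32 helicases above 0 and 14 below. Of the 46, 19 lay above the median locus. By CPM, estimated counts scaled to each pool's total, the same comparison had 20 above 0 and 26 below. That scaling lowers ratios over untreated, whose total is the smallest. For VD3 plus MM-401 over VD3 the median by FPKM was −0.01 against 0.03, with 23 above 0 and 24 below. Neither the family's median nor its count of lower loci thus lay far from those of all loci.

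**Figure D2:**
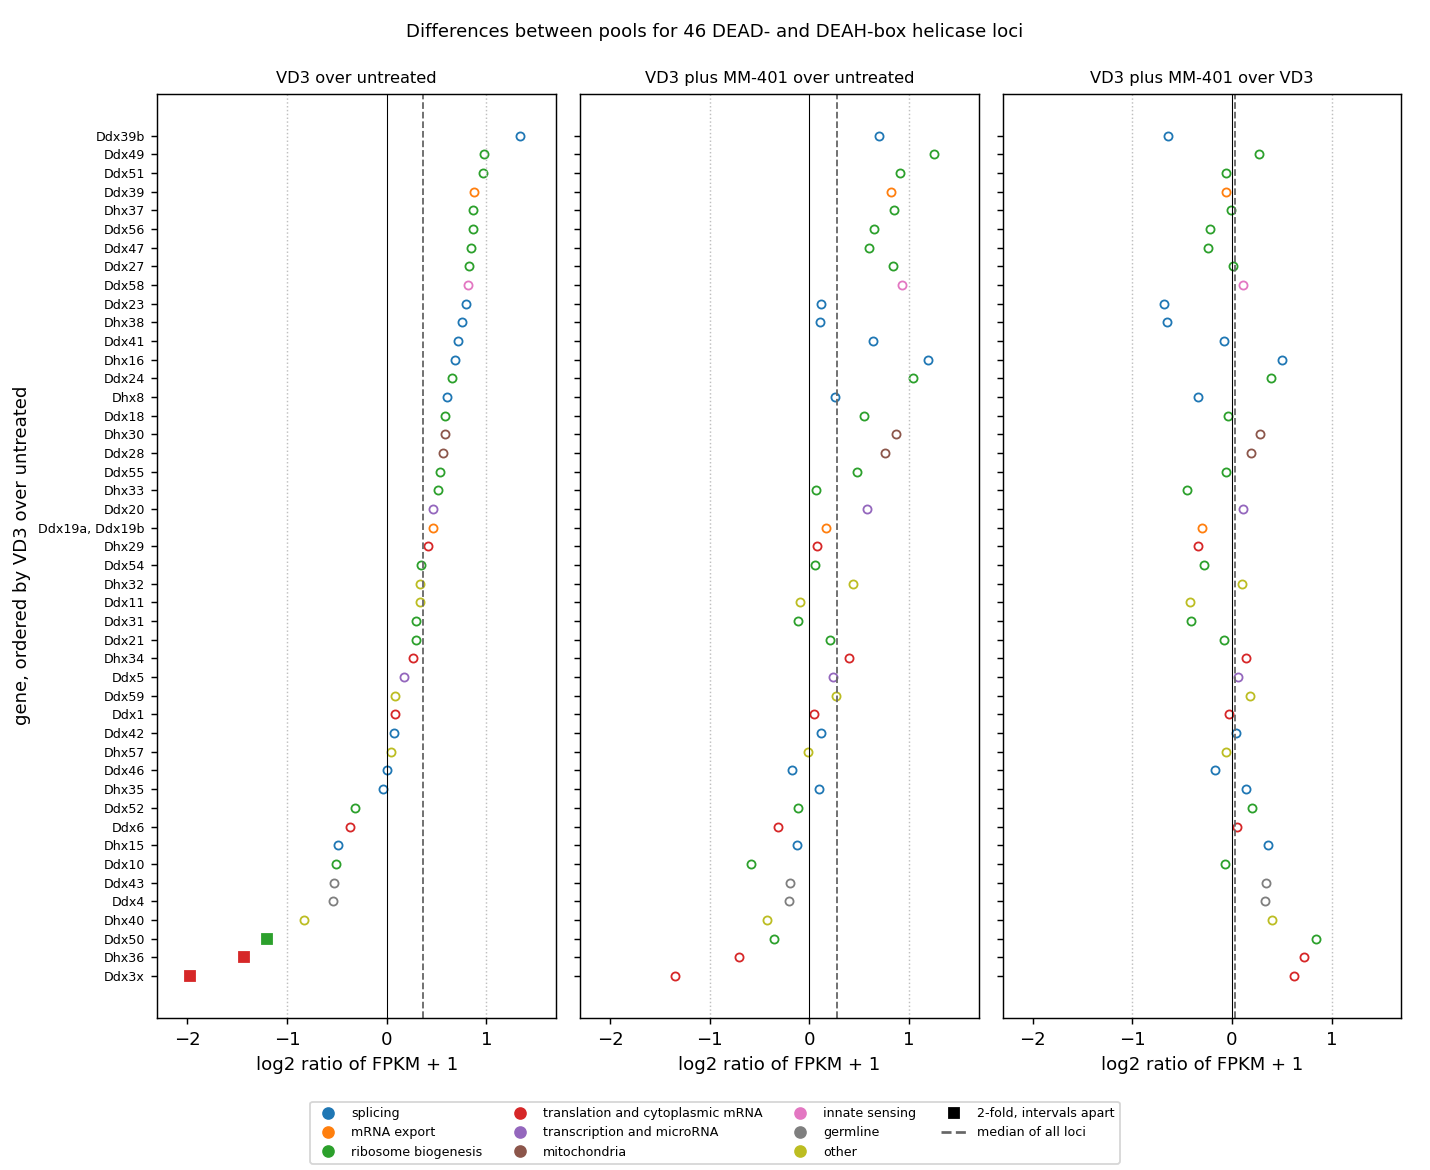
Log2 ratio of FPKM + 1 for each helicase locus tested against untreated cells, in the same gene order in each panel; colours give roles, filled squares mark loci at least 2-fold apart with separate intervals, and the dashed line is the median of all loci. Only Ddx3x, Dhx36 and Ddx50 are squares, all in VD3 over untreated.

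The helicases of translation and cytoplasmic mRNA held the 2 lowest genes of the family in VD3 over untreated. Ddx3x, an X-linked helicase that helps ribosomes start on messages with structured leaders (gene at chrX:13280970-13294052, plus strand), stood at 119 FPKM (authors' interval 55.6 to 182) with VD3 plus MM-401, 76.9 (33.4 to 120.4) with VD3 and 304 (121.7 to 485.5) in untreated cells. Its estimated counts were 25940, 17897 and 68373. The untreated pool was highest on both scales, although the upper bound in VD3 lies only just under the lower bound in untreated cells. The log2 difference was −1.97 for VD3 over untreated, which is 0.253 times the untreated FPKM, −1.35 for VD3 plus MM-401 over untreated, where the intervals overlap, and 0.62 for VD3 plus MM-401 over VD3. Ddx3x has close copies in Ddx3y and the autosomal retrogene D1Pas1, and how the authors shared reads among copies is not given in the sources used here; D1Pas1 itself was listed at 6.52, 7.78 and 10.6 FPKM in the same order of pools.

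Dhx36, which unwinds G-quadruplexes in RNA and DNA (chr3:62468013-62507004, minus strand), stood at 20.7 FPKM (10.02 to 31.3) with VD3 plus MM-401, 12.1 (8.15 to 16.1) with VD3 and 34.3 (21.7 to 46.9) in untreated cells. The estimated counts behind these values were 6458, 4633 and 12653. VD3 was again lowest and untreated highest. The differences were −1.43 for VD3 over untreated, −0.71 for VD3 plus MM-401 over untreated and 0.72 for VD3 plus MM-401 over VD3. The other 4 members of this role moved less: Ddx6, which represses and helps decay messages in processing bodies, had 47.4, 45.7 and 59.3 FPKM, and Ddx1, a subunit of the tRNA ligase complex, had 135, 138 and 130.1 FPKM. Over the 6 the median difference was −0.14 for VD3 over untreated and −0.13 for VD3 plus MM-401 over untreated, with 1 of 6 above the median locus in each; after adjustment for GC content and length, described below, the medians of the 6 were 0.09 and 0.17.

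Ribosome biogenesis was the largest role, with 16 loci tested. Its median difference was 0.56 for VD3 over untreated and 0.51 for VD3 plus MM-401 over untreated, with 10 and 9 of the 16 above the median locus, and the adjusted medians were 0.23 and 0.16. Ddx50, a nucleolar paralogue of Ddx21 (chr10:62615895-62651218, minus strand), went the other way: it stood at 15.4 FPKM (2.55 to 28.3) with VD3 plus MM-401, 8.13 (4.79 to 11.48) with VD3 and 20.0 (12.3 to 27.8) in untreated cells. Its estimated counts were 1638, 1255 and 2990. The VD3 interval lies just under the untreated one, and the VD3 plus MM-401 interval spans both. The differences were −1.20 for VD3 over untreated, −0.36 for VD3 plus MM-401 over untreated and 0.85 for VD3 plus MM-401 over VD3, the last being the highest of the 47 loci in that comparison. Ddx21 itself, a nucleolar helicase that couples ribosomal RNA transcription and processing, had 180.3, 191 and 156 FPKM, with overlapping intervals.

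**Figure D3:**
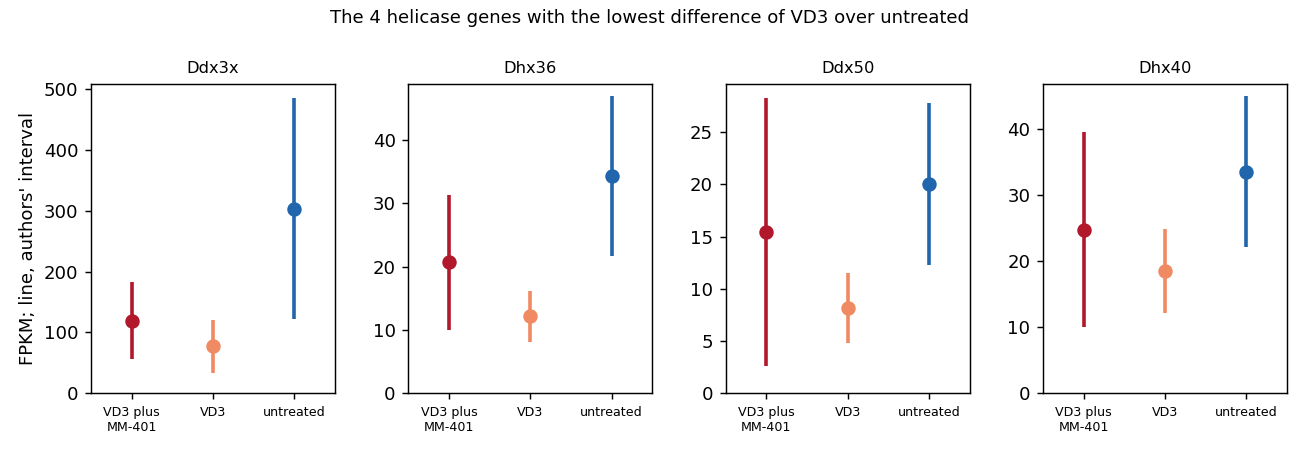
FPKM of the 4 helicase genes with the lowest VD3 over untreated difference, with the authors' interval as a line; each panel has its own axis from 0. VD3 lies lowest and untreated highest in each, and the VD3 and untreated intervals are apart in Ddx3x, Dhx36 and Ddx50 but overlap in Dhx40.

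At the upper end of the same role were processing factors of the ribosomal RNA precursor, none of them past the rule. Ddx49 had 111 FPKM (42.3 to 180.4) with VD3 plus MM-401, 92.2 (40.2 to 144) with VD3 and 46.3 (22.9 to 69.6) in untreated cells. Its differences were 1.25 for VD3 plus MM-401 and 0.98 for VD3 over untreated, which by CPM were 0.48 and 0.42. Ddx51 had 76.7, 79.8 and 40.4 FPKM, and Dhx37, which frees the small-subunit precursor of its U3 RNA in yeast, had 70.4, 71.0 and 38.5 FPKM. The untreated pool was lowest in all of these, with overlapping intervals. Ddx24, whose yeast counterpart serves the large subunit, had 109, 83.2 and 52.4 FPKM, a difference of 1.04 for VD3 plus MM-401 over untreated that by CPM was 0.31. Ddx47 had 171, 203 and 112 FPKM and Ddx27 had 136, 135 and 75.6 FPKM, again with untreated lowest. Ddx10, whose yeast counterpart acts in small-subunit processing, differed from these: 27.2 FPKM with VD3 plus MM-401 and 28.6 with VD3, against 41.2 in untreated cells. Dhx33 had 31.2, 43.0 and 29.8 FPKM with overlapping intervals. Its VD3 plus MM-401 over VD3 difference of −0.45 was the lowest of this role.

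The splicing helicases gave 10 tested loci and 0 counted in any comparison, with medians of 0.65 for VD3 over untreated, 0.12 for VD3 plus MM-401 over untreated and −0.13 for VD3 plus MM-401 over VD3; the first was 0.21 after the same adjustment. Ddx39b, which recruits early spliceosome components and takes part in mRNA export, had 423 FPKM (269.5 to 577) with VD3 plus MM-401, 662 (0 to 4558) with VD3 and 261 (166 to 355) in untreated cells. Its VD3 over untreated difference of 1.34 is the highest of the family, but the interval in VD3 covers every other value, and by CPM the difference is 0.55. Dhx15, which takes spliceosomes apart, had 211, 164 and 230.0 FPKM. Ddx23 (58.1, 93.9 and 53.5 FPKM) and Dhx38 (28.0, 44.4 and 25.9 FPKM), which remodel the spliceosome before and during catalysis, were highest in VD3 and had the 2 lowest VD3 plus MM-401 over VD3 differences of the family, −0.68 and −0.65, with overlapping intervals.

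Dhx16, which acts just before the first splicing reaction, had 1561 FPKM (853 to 2269) with VD3 plus MM-401, 1100.0 (664.5 to 1535) with VD3 and 681 (410.4 to 951) in untreated cells, on 36954, 29676 and 18904 estimated counts. Its FPKM is out of proportion to its counts: it is 10.4, 9.15 and 7.52 times the CPM (counts scaled to the pool's total) per kilobase of the annotated transcript, where the median helicase has ratios of 1.40, 1.37 and 1.12. Its place at the top of the FPKM order is therefore not shared by the count scale.

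In mRNA export, Ddx39, the close paralogue of Ddx39b, had 333 FPKM (211.5 to 455) with VD3 plus MM-401, 348 (222 to 473) with VD3 and 188 (119.8 to 257) in untreated cells, differences of 0.82 and 0.88 over untreated that stayed under 2-fold. The shared Ddx19a and Ddx19b locus, which serves export at the nuclear pore, had 61.3, 75.6 and 54.6 FPKM. Ddx25, a testis helicase, had 1.91, 1.92 and 1.59 FPKM, under the minimum. No export gene was counted in any comparison.

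Of 4 helicases of transcription and microRNA processing, 2 could be compared with untreated cells. Dhx9, which links transcription factors to RNA polymerase II, carries a failed status in VD3 and untreated and Ddx17 in untreated, and these were left out; as listed, Dhx9 had 208, 340.2 and 239 FPKM and Ddx17 had 118, 146 and 102.0. Ddx5, the paralogue of Ddx17 that joins it in microRNA processing, had 278 FPKM (151 to 405) with VD3 plus MM-401, 267 (0 to 545) with VD3 and 236 (0 to 723) in untreated cells. Those 2 intervals start at 0, so its differences of 0.24 for VD3 plus MM-401 and 0.18 for VD3 over untreated lie far within them.

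The mitochondrial pair, both needed for assembly of the mitochondrial ribosome, was lowest in untreated cells by FPKM. Dhx30 had 173, 142 and 94.5 FPKM, each with an interval from 0, and Ddx28 had 18.0, 15.6 and 10.2 FPKM. For Dhx30 FPKM and CPM differ in sign: VD3 plus MM-401 over untreated is 0.87 by FPKM and −0.19 by CPM. Its estimated counts before scaling to pool totals were slightly higher with VD3 plus MM-401, at 10805 against 10475 in untreated cells. The negative sign thus comes with that scaling. Dhx30 overlaps the coding gene Smarcc1 on the other strand and Ddx28 overlaps Dus2; the use of strand in counting is not given in the sources used here, and 8 main loci have such an overlap (Ddx39, Ddx49, Ddx54, Ddx17, Dhx30, Ddx28, Dhx32 and Dhx57).

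Among sensors of foreign RNA, Ddx58, known as RIG-I, had 38.3 FPKM (4.86 to 71.8) with VD3 plus MM-401, 35.4 (18.6 to 52.2) with VD3 and 19.7 (11.7 to 27.7) in untreated cells, differences of 0.93 and 0.82 over untreated with overlapping intervals. Dhx58, its regulator, stayed at 1.59, 1.23 and 1.52 FPKM. The 6 interferon response markers summed to 2.31, 2.80 and 1.36 FPKM, and in each pool at least 5 of them were under 1 FPKM. Ddx58 was thus measured at well above the interferon-induced genes of the list in each pool.

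The germline helicases were lowest in VD3. Ddx4, the mouse Vasa protein of the piRNA pathway, had 11.8 FPKM (7.65 to 15.9) with VD3 plus MM-401, 9.15 (5.99 to 12.3) with VD3 and 13.7 (9.10 to 18.4) in untreated cells, and Ddx43 had 5.02, 3.75 and 5.86 FPKM. Intervals overlapped for both. The 4 germ cell markers summed to 26.6, 24.6 and 36.0 FPKM, and did not move as one. Dazl, a germ cell RNA-binding protein, had 2.94 FPKM with VD3 plus MM-401 and 1.85 with VD3, against 6.98 in untreated cells, and was counted as lower in both comparisons over untreated, by −1.02 and −1.48; adjusted for GC content and length these were −0.55 and −0.64. Sycp3, of the meiotic chromosome axis, had 7.69, 6.73 and 17.4 FPKM with overlapping intervals, whereas Mael (14.4, 13.6 and 10.2) and Tdrd1 (1.54, 2.34 and 1.45), both of the piRNA pathway, were lowest in untreated cells. Their part in the Ddx4 and Ddx43 values was not tested. Of the 5 helicases placed in no role above, Dhx40 was the lowest, at 24.7 FPKM (9.93 to 39.5), 18.5 (12.1 to 24.8) and 33.5 (22.0 to 44.95); Ddx11, a DNA helicase of sister chromatid cohesion, had 14.6, 20.0 and 15.7, and Dhx32 had 56.0, 52.2 and 41.2.

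The differences ran with the base composition of the transcripts. Across 45 helicases, Spearman's correlation of transcript GC content with the VD3 over untreated difference was 0.72, and with the GC share at the third codon position it was 0.76; across 8747 coding loci the value for transcript GC was 0.56. For VD3 plus MM-401 over untreated the correlation was 0.69 across 45 helicases and 0.41 across 8758 coding loci, and for VD3 plus MM-401 over VD3 it was −0.31 across 46 and −0.22 across 8571. The points share pools and their composition, so these are descriptions. Of the 11 helicases under 45% GC, 10 were below 0 in VD3 over untreated, Ddx5 being the exception; their median was −0.53, against −0.58 over coding loci of that GC class. The 10 helicases at 55% GC or more had a median of 0.70, against 0.52 over coding loci. In VD3 plus MM-401 over VD3 the same low-GC class lay the other way, with 10 of 11 above 0. Its median was 0.34, against 0.29 over its coding loci. Both comparisons use the same VD3 pool, on opposite sides of the ratio, so the opposite sign is not a separate observation.

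Within the low-GC class the helicase count is read against its own background: 3 of 11 were counted as lower, where 17.6% of 1835 coding loci were. Ddx3x has a transcript GC content of 41.0%, Dhx36 of 40.0% and Ddx50 of 43.75%. After subtracting the median difference of the 200 coding loci nearest in GC content and length, the VD3 over untreated difference was −0.79 for Ddx3x, −0.03 for Dhx36 and −1.02 for Ddx50, so that Ddx50 alone was still past 2-fold. Under that adjustment the highest values were those of Ddx5 (0.84), Ddx39b (0.80), Ddx58 (0.74) and Ddx51 (0.70), and the median of the 45 was 0.16. For VD3 plus MM-401 over untreated the adjusted values were −0.51 for Ddx3x, 0.35 for Dhx36 and −0.33 for Ddx50.

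**Figure D4:**
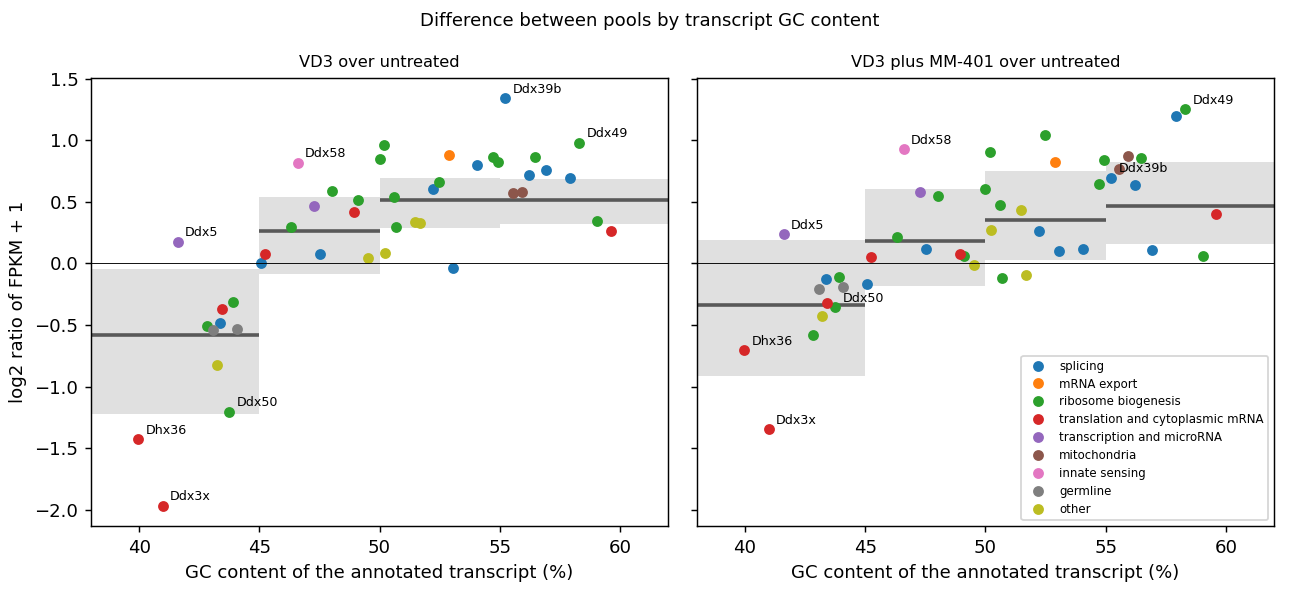
Log2 ratio of FPKM + 1 by GC content of the annotated transcript for 45 helicases in each panel, coloured by role; grey boxes give the quartiles and dark lines the median of coding loci in 4 GC classes. Helicases lie along the coding medians, −0.53 against −0.58 under 45% GC in VD3 over untreated, with Ddx3x and Dhx36 at the lower left.

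FPKM and CPM did not give the same sizes. CPM was computed here by dividing the authors' estimated counts by each pool's total, which is smallest in untreated cells. That division lowers ratios over untreated by a shared amount. In VD3 over untreated the FPKM difference exceeded the CPM difference by a median of 0.24 over the helicases, beside 0.24 over all loci, and the sign differed for 7 of 46; in VD3 plus MM-401 over untreated the excess was 0.29, beside 0.23 over all loci, with the sign differing for 14 of 46. In VD3 plus MM-401 over VD3, whose totals are close, the excess over all loci was −0.00075. By CPM the helicase medians were 0.21 for VD3 over untreated and −0.09 for VD3 plus MM-401 over untreated, against 0.12 and 0.05 over all loci. The low tail is on both scales. It is larger by CPM, at −2.17 for Ddx3x, −1.68 for Dhx36, −1.44 for Ddx50 and −1.07 for Dhx40 in VD3 over untreated. The division by pool totals adds to that size. CPM was also used with intervals of 2 standard deviations from the authors' count variance, scaled alike. By that rule these 4 genes were lower in VD3 over untreated (8.78% of all loci lower and 0.213% higher). Ddx3x (−1.63), Dhx36 (−1.20) and Ddx50 (−1.07) were lower in VD3 plus MM-401 over untreated (5.44% of all loci lower and 2.2% higher). In VD3 plus MM-401 over VD3 0 were counted (0.111% lower and 1.11% higher).

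**Figure D5:**
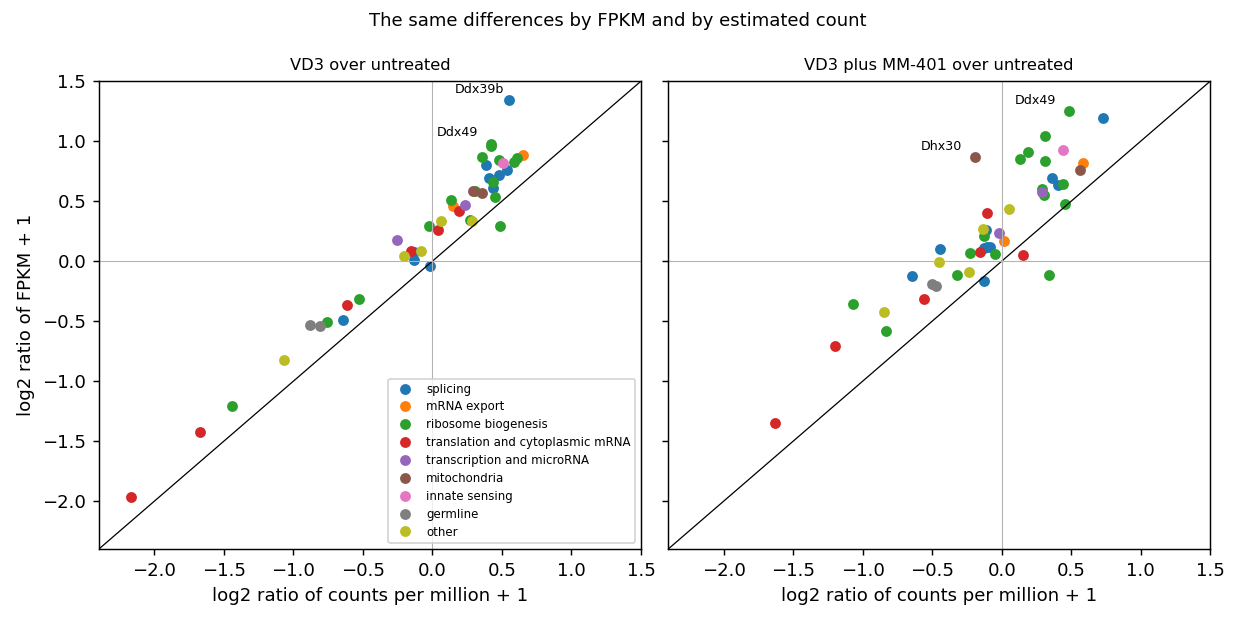
Log2 ratio of FPKM + 1 (vertical) against log2 ratio of CPM + 1 (horizontal, by estimated count) for 46 helicase loci in each panel, coloured by role, with the line of equality. Most points lie above the line, by medians of 0.24 in VD3 over untreated and 0.29 in VD3 plus MM-401 over untreated; Ddx39b, Ddx49 and Dhx30 are labelled as the farthest above.

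Some second loci bear a helicase's name but lie among rows of the other strand. The second Ddx10 locus had 37.2, 9.93 and 7.91 FPKM on 1478, 394 and 314 estimated counts, where the main locus was highest in untreated cells; 12 of its 13 neighbours in the table are plus-strand genes, whereas Ddx10 is on the minus strand. The second Ddx25 locus had 30.4, 12.9 and 5.49 FPKM on only 312, 132 and 56.3 estimated counts. Of its neighbours, 16 of 16 are plus-strand genes although Ddx25 is on the minus strand. The intervals of the second Ddx10 and Ddx25 loci start at 0 in every pool and overlap, and neither was counted in any comparison. The neighbours of the second Ddx39b and Ddx43 loci are also mostly of the strand opposite to the gene (1 of 18 and 2 of 14 on the plus strand, where both genes lie), whereas 18 of 20 neighbours of the second Ddx42 locus share that gene's plus strand. These 3 were at or under 4.20 FPKM in every pool. The strand of a locus was read from its neighbours in the table and is not given there, and values summed by gene name would add these loci to the main ones.

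Relatives outside the symbol rule gave few counted genes. Of 6 tested family members without a Ddx or Dhx symbol, the m6A-binding DEAH-box protein Ythdc2, a germ cell regulator, was lower in both treated pools (1.59 FPKM with VD3 plus MM-401 and 1.14 with VD3, against 5.67 in untreated cells). Its differences over untreated of −1.36 and −1.64 were −0.53 and −0.49 after adjustment for GC content and length, under 2-fold. The initiation factor Eif4a1 had 644, 304 and 234 FPKM and Eif4a3 of the exon junction complex had 601, 493 and 282, neither counted. Eif4a2, the paralogue of Eif4a1, lay the other way at 99.7, 86.2 and 374 FPKM, differences of −1.90 and −2.10 over untreated. Its VD3 and untreated intervals start at 0, and it was not counted either. The Eif4a1 locus also carries the names Gm22988 and Gm24029, and the Eif4a2 locus carries Snora81, Snord2 and others. Dqx1, also among the 6, shares its locus with Aup1. Values of these loci need not be those of the named gene alone. Of 12 tested genes from other RNA helicase families 0 were counted in any comparison; the highest by the mean over pools were Snrnp200 (202, 150 and 112 FPKM) and Aqr (50.8, 86.2 and 74.0 FPKM), both spliceosomal. Their medians were 0.26 for VD3 over untreated and 0.01 for VD3 plus MM-401 over untreated.

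Among the cofactors that steer the helicases, 1 of 18 G-patch genes and 1 of 20 MIF4G and related genes were counted, both higher in VD3 plus MM-401 over untreated, which is about the 5.31% of all loci counted there. They were Gpatch4, with 89.0, 72.5 and 42.8 FPKM and a difference of 1.04, and Magoh, a core subunit of the exon junction complex around Eif4a3, with 672, 411 and 262 FPKM and a difference of 1.36; after adjustment for GC content and length the differences were 0.60 and 0.78, under 2-fold. The most abundant others were Rbm17 (669, 367 and 254 FPKM) and the locus that holds Cmtr1 merged with Rnf8 and Tbc1d22b (117, 146 and 89.6 FPKM) of the G-patch list and Eif4g2 (1416, 1006 and 1627 FPKM) of the MIF4G list, with overlapping intervals over untreated. The Eif4g2 locus also carries other gene names. Median differences of VD3 over untreated were 0.45 for the G-patch genes and 0.35 for the MIF4G list, near the 0.36 of all loci.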

How the data were processed

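The authors aligned reads to mm10 and quantified genes with tools that the submitters' processing notes name without roles: TopHat2 2.1.1, SAMtools 1.5 and Cufflinks 2.2.1. Per the file headers, the deposited tables hold, for each pool of 2 libraries, FPKM per locus with a lower and an upper bound, and estimated counts with a variance; the sources used here do not give count weighting, strand use or normalization. The members, roles, lists and rules were chosen with earlier results of these data known.

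From these values log2 ratios of FPKM + 1 were computed in Python 3.11.15 with pandas 2.3.3 and numpy 2.4.6, over every locus of at least 5 FPKM in the higher pool with valid status. A difference was counted at 2-fold or more with bounds apart. A gene's main locus is the one with the most counts. GC content and length come from the GENCODE vM21 transcript with the longest coding sequence. The procedure was tested on simulated data. Alternatives were a pseudocount of 0.1, a minimum of 1 FPKM or none, counts as CPM, centring on the median locus, GC and length adjustment, and either part of the rule alone.

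Genes named are those counted, the 3 highest of each role, the 5 highest and 5 lowest differences of each comparison, and in each outside list the counted genes and the 2 highest. Other genes named beside these were chosen after their values were seen.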

Additional observations from a re-analysis of the deposited data

How the results depend on the processing

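No paired analysis was possible because each deposited column pools both libraries of a group; leaving out a library and a fit with a replicate block were not run for the same reason. For VD3 over untreated, 3 helicases were lower except in these cases: 1 (Ddx50) after adjustment for GC content and length, and 4 by CPM, Dhx40 being added, also with CPM centred on the median locus. The adjustment changes the difference only, and the intervals stay those of the unadjusted FPKM. Below, by count and centred counts refer to CPM. With 2-fold alone 1 was higher (Ddx39b). For VD3 plus MM-401 over untreated, where 0 were counted, 3 were lower by count (Ddx3x, Dhx36 and Ddx50), also after centring the counts, and with 2-fold alone 3 were higher (Ddx24, Ddx49 and Dhx16) and 1 lower (Ddx3x). Its median of 0.19 became −0.093 by count, −0.0905 after centring FPKM on the median locus and −0.14 with centred counts. For VD3 plus MM-401 over VD3 the median of −0.01 became 0.078 after GC and length adjustment and 0.030 with loci of one name summed. Summing and the centred counts were chosen after seeing the data. Over all loci, VD3 over untreated gave 168 higher and 548 lower; by count it gave 25 and 1033, after GC and length adjustment 11 and 109 of 8747 coding loci, with 2-fold alone 561 and 1113, with a minimum of 1 FPKM 354 and 889, and with loci summed 101 and 460. VD3 plus MM-401 over untreated gave 633 and 379; by count 263 and 649, adjusted 44 and 88 of 8758, with 2-fold alone 1894 and 853, with the lower minimum 875 and 709, and centred 451 and 390. VD3 plus MM-401 over VD3 gave 235 and 121; by count 130 and 13, adjusted 13 and 6 of 8571, with 2-fold alone 868 and 374, with the lower minimum 436 and 310, and summed 89 and 58. Of 938 values of 34 named helicases under the alternatives, 31 were levels in untreated cells and the rest were differences. Among counted differences 0 turned round in direction. Another 53 values moved, 2 of them levels and the rest uncounted differences. A difference moved if it shifted by at least the error implied by the authors' intervals, and a level if it left its interval. A further 13 passed the rule that had not, and 2 no longer passed it (Ddx3x at −0.79 and Dhx36 at −0.03, both adjusted). The only counted ones were Ddx3x, Dhx36 and Ddx50 in VD3 over untreated, so that 0 covers few values. It leaves out uncounted sign changes, such as Dhx30 in VD3 plus MM-401 over untreated (0.87 by FPKM, −0.19 by CPM). Low depth limits loci such as Ddx60, with 0 counts, Dhx58 and the second Ddx25 locus. The cause of these shifts was not tested.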
